A study of Mus musculus with 16 samples.

Results

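The genes described here encode membrane carriers that move amino acids, sugars and monocarboxylates such as lactate, together with the related carriers of amines, taurine, betaine and creatine. They were chosen by name, as every probe whose gene symbol begins with Slc1a, Slc2a, Slc3a, Slc5a, Slc6a, Slc7a, Slc16a, Slc36a, Slc38a or Slc43a. The rule took 127 of the 25697 probes on the array, for 91 of 16593 named genes. Of these, 52 probes for 41 genes were detected on at least 4 of the 16 arrays and entered the tests, out of 12760 probes for 8833 genes in all. Slc7a6os fits the rule by its letters only: it is the gene on the opposite strand next to Slc7a6 and encodes no carrier.

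Many carriers of the SLC7 family are light chains that exchange amino acids across the membrane and reach the cell surface only when bound to the heavy chain Slc3a2, while its other members carry arginine and lysine alone. SLC38, SLC36 and some SLC1 proteins move glutamine, alanine, serine and other small neutral amino acids. SLC2 proteins let glucose pass along its gradient, and some SLC16 proteins move lactate and pyruvate with a proton. Growing blood progenitors depend on such uptake, and several of these genes are known targets of the amino acid response, in which the transcription factor ATF4 switches on uptake and synthesis genes when amino acids run short or oxidants rise.

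All samples were c-Kit-enriched mouse bone marrow cells, grown with interleukin-3, interleukin-6 and stem cell factor, infected with a retrovirus that marks cells with green fluorescent protein (GFP), and sorted as GFP-positive and c-Kit-positive 48 hours after infection. Donors were 8-week-old C57Bl/6 wild-type mice or age-matched Booreana mice, which carry a point mutation in Myb that weakens the binding of c-Myb to the coactivator p300. The virus was MSCV-I-GFP alone (control vector) or MSCV-AML1-ETO9a-I-GFP, which adds AML1-ETO9a, a short form of the RUNX1-RUNX1T1 fusion protein of human acute myeloid leukaemia. Each genotype received each virus, which makes 4 groups, with 4 Illumina mouse Ref-8 arrays each. The series title places the work in the question of whether c-Myb must bind p300 for human oncogenes to start this leukaemia. The retroviral promoter drives the oncogene in every infected cell, whatever its type, and the labels give 4 Booreana mice but no number of wild-type mice, so p-values cover only how much these arrays varied, which may be technical in part.

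Median raw intensity per array ran from 189.3 to 250.1, and 39.53% to 46.71% of probes were detected. Booreana control replicate 2 stood apart: its mean correlation with the other arrays was 0.8455, and that of the other arrays 0.9311 to 0.9546. It was the highest or lowest array of its group for 32 of the 41 transporter genes (78.05%) and for 74.99% of all genes tested. Of the early progenitor markers, Cd34, Mecom, Slamf1 and Meis1 were tested, with a summed linear level of 430 to 675 in wild-type control, 933 to 1510 in wild-type AML1-ETO9a, 2110 to 3300 in Booreana control and 3640 to 4360 in Booreana AML1-ETO9a arrays. Single markers of this list did not all move together. The AML1-ETO9a difference in Booreana cells was positive for 3 and negative for 1 (-0.30 to 2.38). Booreana minus wild-type with AML1-ETO9a split likewise (-0.21 to 2.45). In wild-type cells, and between genotypes with the control vector, all 4 were positive. Kit, the gene used for the sort, had no probe named for it in the annotation used here. All values below are background-corrected, quantile-normalized log2 intensities of 1 probe, so they can be set against each other between arrays but not between genes. A gene was called at an adjusted p under 0.05, adjusted over all tested probes in limma's fit, and values after ± are standard errors unless SD is written.

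Families differed in how many of their genes were detected. Of the SLC7 genes 9 of 16 were tested, of SLC38 genes 7 of 10, of SLC6 genes 7 of 18, of SLC16 genes 5 of 12, of SLC2 genes 5 of 11, of SLC1 genes 3 of 7, of SLC36 genes 2 of 3 and of SLC43 genes 1 of 2. The only SLC3 gene on the array, Slc3a2, was tested, and of the 11 SLC5 genes, which couple sugars, vitamins and other solutes to sodium, only Slc5a6 was. The untested 50 genes had 75 probes, 54 of them detected on 0 arrays and 21 on 1 to 3 arrays. Among them were Slc16a1, the main lactate carrier of many cells (0 arrays), Slc7a1, the general arginine carrier (0 and 2 arrays for its probes), Slc2a4, the insulin-responsive glucose carrier (2 arrays), and Slc43a3 (1 array). A probe under this limit does not show that the gene is silent. Of the 41 tested genes, 25 were detected on all 16 arrays.

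Grouped by substrate, 17 tested genes were counted with neutral amino acids, 5 with cationic amino acids and 2 with acidic amino acids or cystine. Another 5 were counted with amines, GABA, taurine, betaine or creatine, 5 with sugars and polyols, and 3 with monocarboxylates. The last 4 had another or unsettled substrate, among them Slc7a6os, which encodes no carrier. Slc3a2, the heavy chain, was counted in the neutral class. In wild-type cells the AML1-ETO9a minus control difference was positive for 27 genes and negative for 14, with a median of 0.23 on the log2 scale, where all genes tested had a median of 0.02. In Booreana cells it was positive for 17 and negative for 24, with a median of -0.05, equal to that of all genes at this rounding. Without normalization between arrays the Booreana split turned to 27 positive and 14 negative, while the median of all genes moved from -0.05 to 0.07. Booreana minus wild-type was positive for 33 genes and negative for 8 with the control vector (median 0.20, all genes 0.04), and the split became 26 and 15 when Booreana control replicate 2 was left out. With AML1-ETO9a it was positive for 21 and negative for 20 (median 0.03, all genes -0.04), and 27 and 14 without normalization between arrays.

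**Figure D1:**
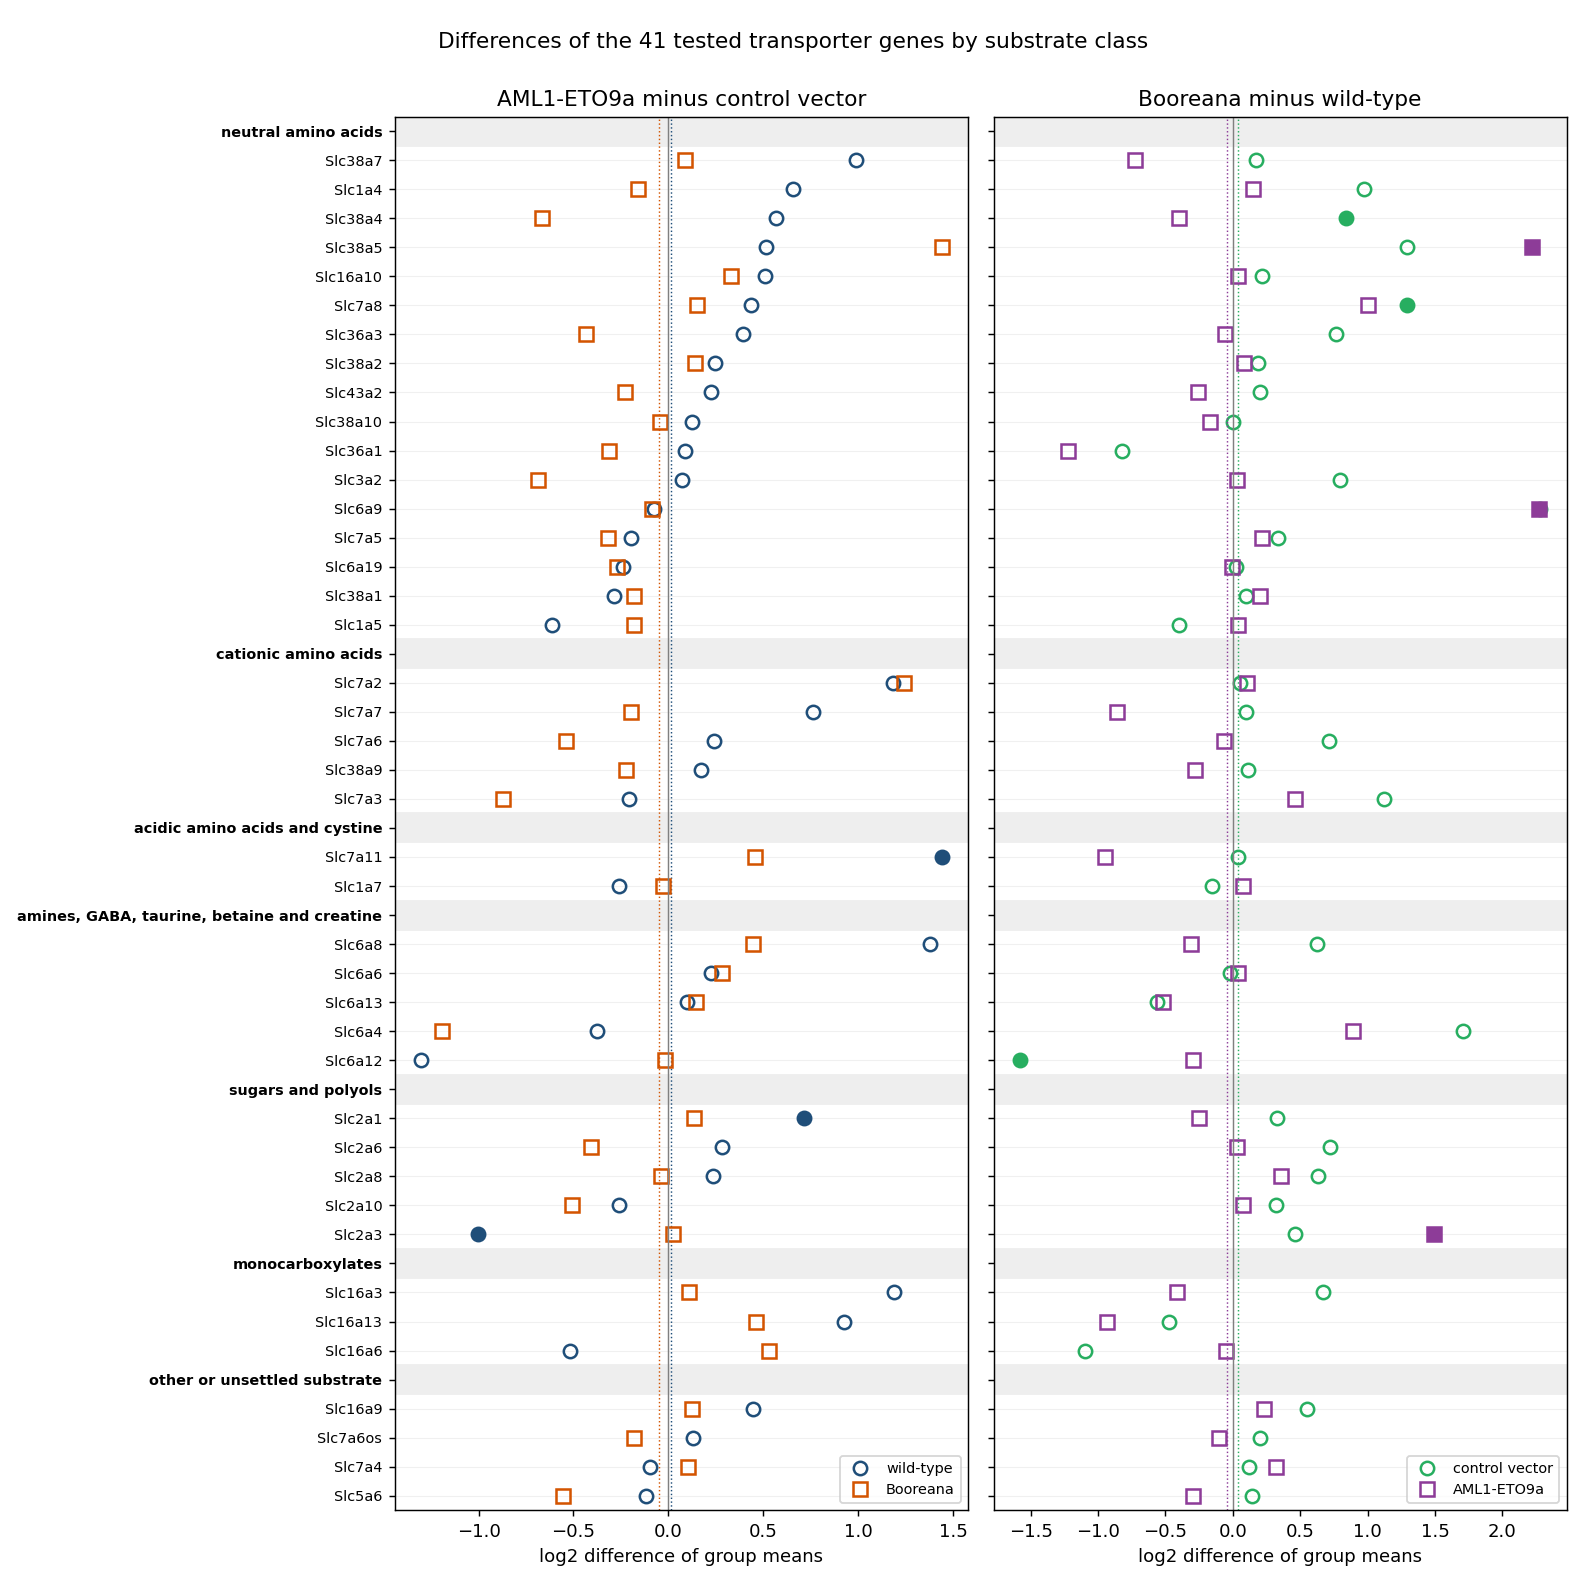
Log2 differences of group means for the 41 tested transporter genes, ordered by substrate class and, within a class, by the AML1-ETO9a difference in wild-type cells. Left, AML1-ETO9a minus control vector in wild-type (circles) and Booreana cells (squares). Right, Booreana minus wild-type with the control vector (circles) and with AML1-ETO9a (squares). Filled symbols are genes called at an adjusted p under 0.05, and dotted lines are the medians of all genes tested; the filled symbols on the left are Slc7a11, Slc2a1 and Slc2a3, all in wild-type cells, and on the right the filled circle of Slc6a9 lies under its filled square.

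The first comparison asks how AML1-ETO9a altered transporter transcripts in normal progenitors within 48 hours. Slc7a11 and Slc2a1 rose and Slc2a3 fell, so 3 of 41 transporter genes were called, beside 4.92% of all genes tested. Slc7a11 is the light chain that imports cystine in exchange for glutamate and so feeds glutathione synthesis, and Slc2a1 and Slc2a3 are the glucose carriers GLUT1 and GLUT3. In these bulk samples fewer cells of a type and less RNA per cell cannot be told apart.

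Slc7a11 stood at 9.29, 9.07, 9.20 and 8.73 on the wild-type control arrays and at 10.53, 10.51, 10.77 and 10.25 on the wild-type AML1-ETO9a arrays. On the Booreana control arrays it stood at 9.00, 9.51, 8.50 and 9.45, and on the Booreana AML1-ETO9a arrays at 9.06, 10.07, 9.28 and 9.87. All wild-type AML1-ETO9a arrays lay above all 12 arrays of the other groups. The rise in wild-type cells was 1.44 ± 0.26 on the log2 scale, or 2.72-fold (adjusted p = 0.00351). It kept its call in all 28 alternative settings, among them each of the 16 arrays left out in turn. In Booreana cells the difference was 0.46 ± 0.26 (adjusted p = 0.521), with the arrays of both groups overlapping.

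The promoter windows of the called genes for which the table holds a single window are printed here because the virus carries the DNA-binding part of RUNX1 and the mice carry an altered c-Myb. Each window runs 5′ to 3′ on the gene's strand from 250 bases before to 50 bases after the start, from RefSeq on GRCm38.p6. Capitals mark matches, on either strand, to the RUNX letters TGTGGT, the E-box CACGTG, or TGATGNAA, the leading letters of the amino acid response element.
Slc7a11: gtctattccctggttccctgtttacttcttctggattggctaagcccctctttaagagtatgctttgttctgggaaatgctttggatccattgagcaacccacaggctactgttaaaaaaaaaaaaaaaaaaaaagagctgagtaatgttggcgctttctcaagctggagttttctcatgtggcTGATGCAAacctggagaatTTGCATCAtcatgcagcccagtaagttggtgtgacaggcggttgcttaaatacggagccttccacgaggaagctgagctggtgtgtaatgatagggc
Slc2a1: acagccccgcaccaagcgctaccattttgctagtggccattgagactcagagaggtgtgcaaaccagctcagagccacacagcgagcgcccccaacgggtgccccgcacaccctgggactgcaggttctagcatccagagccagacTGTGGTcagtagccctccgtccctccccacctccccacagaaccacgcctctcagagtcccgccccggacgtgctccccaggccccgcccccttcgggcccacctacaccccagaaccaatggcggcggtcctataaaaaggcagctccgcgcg
Slc38a5: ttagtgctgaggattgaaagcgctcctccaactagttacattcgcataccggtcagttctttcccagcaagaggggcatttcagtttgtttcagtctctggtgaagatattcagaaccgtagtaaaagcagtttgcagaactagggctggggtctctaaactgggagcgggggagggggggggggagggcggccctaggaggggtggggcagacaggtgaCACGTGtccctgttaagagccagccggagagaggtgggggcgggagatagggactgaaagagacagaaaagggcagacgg
Slc7a8: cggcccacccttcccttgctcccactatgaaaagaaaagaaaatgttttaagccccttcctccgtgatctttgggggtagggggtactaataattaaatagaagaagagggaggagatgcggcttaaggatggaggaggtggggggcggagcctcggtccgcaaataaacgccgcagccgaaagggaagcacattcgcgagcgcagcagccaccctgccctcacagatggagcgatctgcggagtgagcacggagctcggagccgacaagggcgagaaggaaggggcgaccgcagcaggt

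The windows lie at chr3:50443564-50443863 on the minus strand (Slc7a11), chr4:119108495-119108794 on the plus strand (Slc2a1), chrX:8271131-8271430 on the plus strand (Slc38a5) and chr14:54781837-54782136 on the minus strand (Slc7a8). The Slc7a11 window holds TGATGNAA at 66 bases before the start on its own strand and again at 47 bases before it on the other strand. These letters occurred in 3.97% of all 32851 windows and in 4 of the 47 windows of tested transporter genes (8.51%), those of Slc7a11, Slc1a4 and Slc7a7. Windows of a gene with several starts can overlap, as those of Slc7a7 do, so the same site can be counted again. They were searched after the Slc7a11 window had been read. The longer form TGATGNAAT, searched first, was in 0.965% of all windows and in 0 of the 47. TGTGGT lies in the Slc2a1 window 104 bases before the start. Of the called genes with several windows, not printed here, Slc6a12 and Slc6a9 also hold it, as do genes that were not called. In all, TGTGGT was in 12 of the 47 transporter windows (25.5%) and in 16.8% of all windows. The windows of Slc6a12 that hold it overlap. CACGTG, an E-box, lies 30 bases before the start of Slc38a5, and was in 4 of 47 transporter windows (8.51%) and 7.15% of all. The MYB letters AACNG were in 32 of 47 transporter windows (68.1%) and 80.3% of all, so they set few windows apart and are not marked. The Slc7a8 window held none of the marked letters, which says only that they are not in these 300 bases. Windows were found for 30 of the 41 tested genes, and none is given here for Slc2a3.

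Slc2a1 stood at 11.70, 12.37, 12.32 and 12.51 with the control vector and at 12.65, 13.02, 12.82 and 13.28 with AML1-ETO9a in wild-type cells. On the Booreana arrays it stood at 12.61, 12.52, 12.57 and 12.52 with the control vector and at 12.73, 12.47, 12.70 and 12.86 with AML1-ETO9a. In wild-type cells every AML1-ETO9a array lay above every control array, and the Booreana control arrays lay in the narrow gap between them. The rise was 0.72 ± 0.19, or 1.64-fold (adjusted p = 0.0452), and 0.14 ± 0.19 in Booreana cells (adjusted p = 0.795). This call lay close to the threshold: it was lost in 13 of 16 fits with 1 array left out, with adjusted p from 0.0508 to 0.136 and a value from 0.54 (without wild-type control replicate 1) to 0.77. It was also lost without normalization between arrays (adjusted p = 0.134) and with only the groups compared (0.116).

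Slc2a3 moved the other way in wild-type cells. It stood at 11.20, 10.89, 11.10 and 11.44 on their control arrays and at 10.26, 10.05, 10.20 and 10.11 on their AML1-ETO9a arrays, with no overlap. It fell by 1.00 ± 0.20 on the log2 scale (adjusted p = 0.00802). Booreana values were 11.31, 11.54, 11.63 and 12.00 with the control vector and 11.77, 11.36, 11.35 and 12.11 with AML1-ETO9a, and these groups overlapped (0.03 ± 0.20, adjusted p = 0.971). The fall in wild-type cells kept its call in 27 of 28 alternative settings and lost it without normalization between arrays (-0.92, adjusted p = 0.12).

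**Figure D2:**
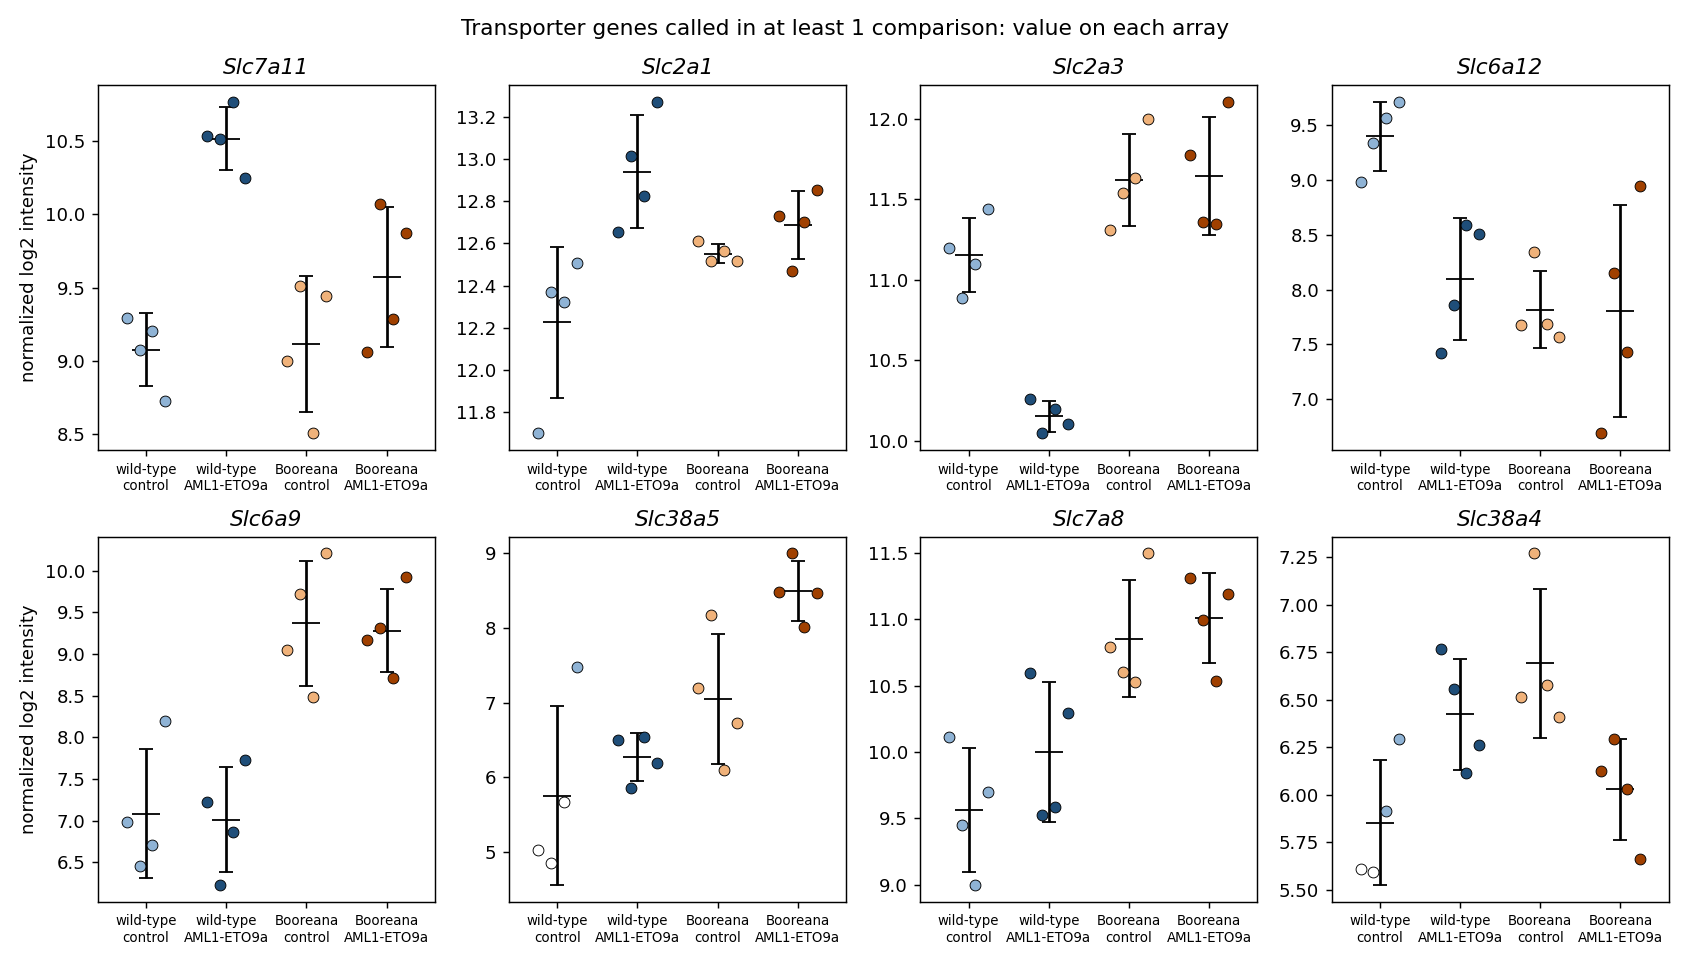
Normalized log2 intensity on each array for the 8 transporter genes called in at least 1 comparison, in the 4 groups (4 arrays each; replicates 1 to 4 from left to right in a group). Horizontal lines and bars are the mean and SD, and open points are arrays on which the probe was not detected. Slc7a11 is highest and Slc2a3 lowest in wild-type AML1-ETO9a cells, and Slc6a9 and Slc7a8 are higher in the Booreana control arrays than in the wild-type control arrays without overlap.

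Arrays of equal replicate number within a genotype deviated together from their group means in each pair (correlations 0.167 to 0.708 in wild-type and 0.362 to 0.418 in Booreana cells), so the response was also fitted with the replicate as a block within each genotype. That fit called 8 of the 41 transporter genes in wild-type cells, beside 8.46% of all genes. It kept Slc7a11 (adjusted p = 0.000611), Slc2a3 (adjusted p = 0.00644) and Slc2a1 (adjusted p = 0.0145), and added Slc7a2, Slc38a7, Slc16a3, Slc6a8 and Slc6a12. Slc38a7 and Slc6a8 lie outside the rule for named genes and are named because of these values.

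Slc7a2, a carrier of arginine and other cationic amino acids, stood at 6.84, 6.71, 6.05 and 6.63 with the control vector and at 7.07, 7.86, 7.75 and 8.27 with AML1-ETO9a in wild-type cells. In Booreana cells it stood at 6.20, 6.31, 5.82 and 8.10, and at 7.24, 7.83, 7.03 and 9.29. Every AML1-ETO9a array lay above the control array of its own number, in 4 of 4 pairs of each genotype, and Booreana replicate 4 was the highest of its group with either virus. With the block it rose by 1.18 ± 0.23 in wild-type (adjusted p = 0.0145) and by 1.24 ± 0.23 in Booreana cells (adjusted p = 0.0232). Without the block the same differences had standard errors of 0.50 and adjusted p = 0.29 and 0.308. A second tested probe, detected on 0 control arrays and on 3 of 4 AML1-ETO9a arrays of each genotype, was at least 1.15-fold higher in wild-type and at least 1.22-fold higher in Booreana cells (adjusted p = 0.333 and 0.509 without the block).

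Slc16a3, which exports lactate, stood at 6.65, 5.31, 5.75 and 6.02 on wild-type control arrays and at 7.89, 6.71, 7.00 and 6.88 on wild-type AML1-ETO9a arrays, without overlap. It rose by 1.19 ± 0.27 with the block (adjusted p = 0.0286, and 0.189 without it). A second probe of Slc16a3 gave only 0.12 ± 0.32 without the block, so the probes of this gene disagree. In Booreana cells the arrays were spread widely, at 5.69, 7.48, 5.77 and 7.47 and at 6.36, 7.39, 6.60 and 6.48, and the difference was 0.11.

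Slc6a12, the betaine and GABA carrier, fell in the blocked fit. It stood at 8.98, 9.34, 9.56 and 9.71 on wild-type control arrays and at 7.43, 7.86, 8.59 and 8.51 on wild-type AML1-ETO9a arrays, which all lay lower. It fell by 1.30 ± 0.31 with the block (adjusted p = 0.0353, and 0.0846 without it). Unblocked, it also passed with array weights (0.0185), without background correction (0.037), with only the groups compared (0.0274), with the authors' processed values (0.0301) and without Booreana AML1-ETO9a replicate 1 (0.0391) or 4 (0.035).

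Slc6a8, the creatine carrier, was detected on 0 of 4 wild-type control arrays, at 5.46, 5.41, 5.72 and 4.94, and on 4 of 4 wild-type AML1-ETO9a arrays, at 7.63, 6.01, 7.39 and 6.02. Its AML1-ETO9a mean was at least 2.06-fold higher, taking as the bound the lowest signal among detected probes (adjusted p = 0.0324 with the block, 0.137 without it). Slc38a7, a lysosomal glutamine carrier, rose by 0.99 ± 0.20 with the block (adjusted p = 0.016, and 0.335 without it), and was higher in 4 of 4 wild-type pairs. Its arrays, 8.45, 6.56, 6.98 and 7.42 against 9.23, 7.77, 8.48 and 7.90, overlapped because replicate 1 was high with either virus.

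**Figure D3:**
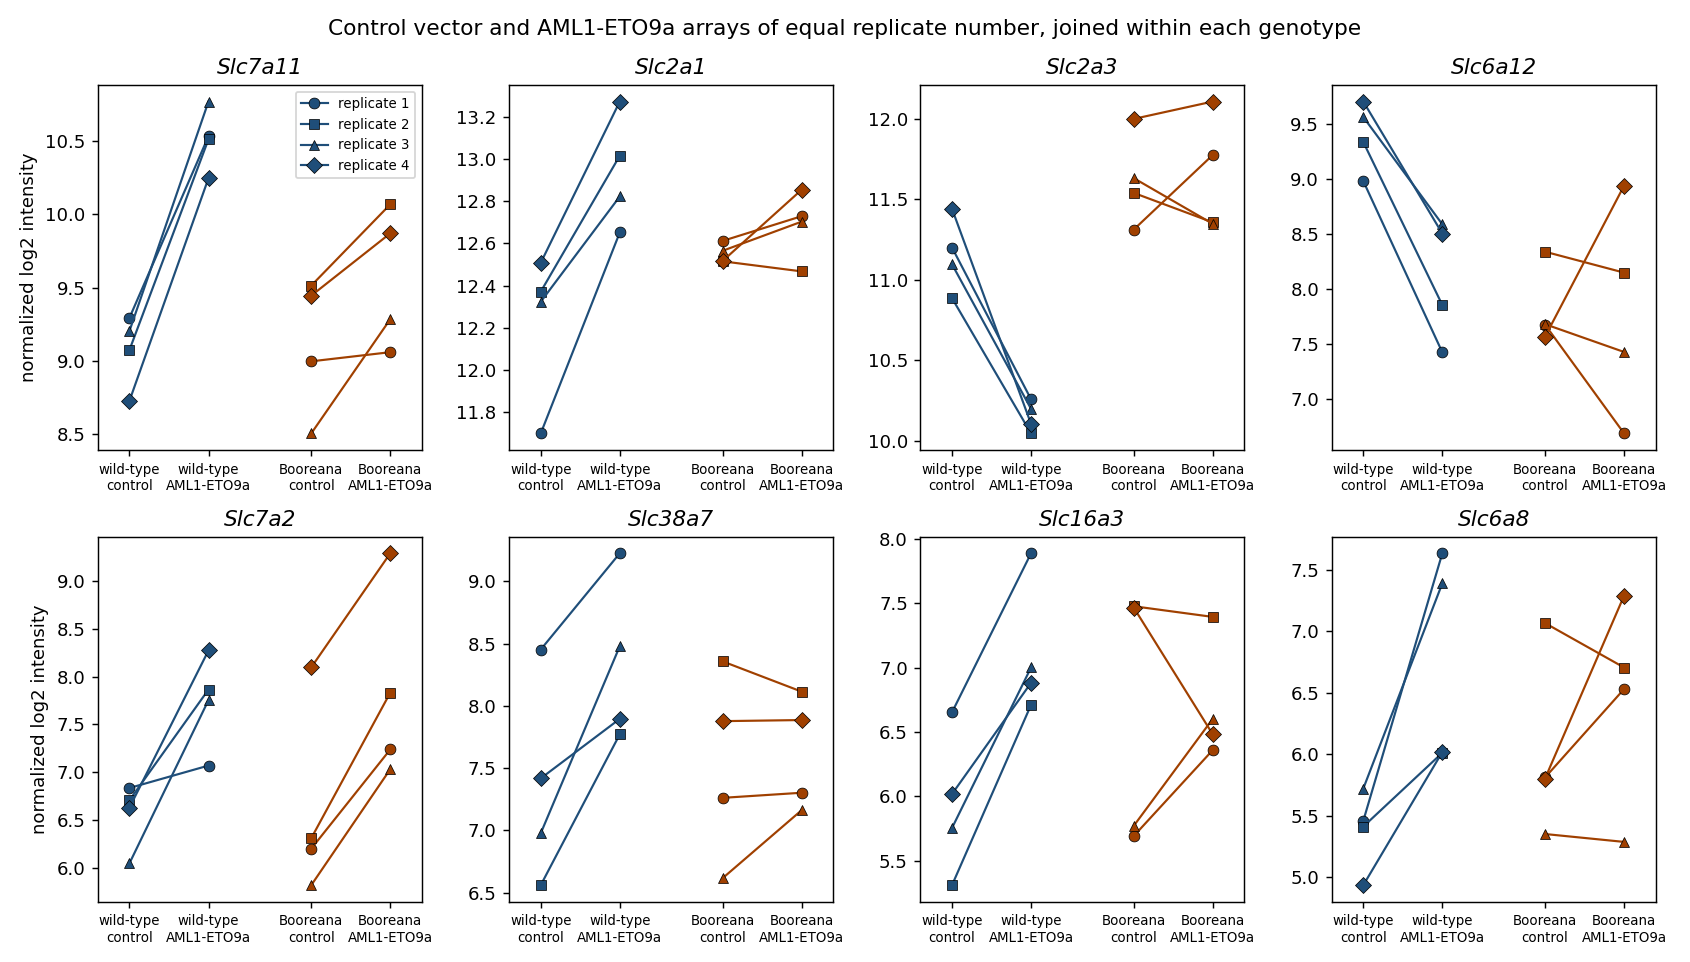
Normalized log2 intensity of the 8 transporter genes called in wild-type cells by the fit with the replicate as a block, with lines joining control and AML1-ETO9a arrays of equal replicate number within wild-type (blue) and Booreana cells (orange-brown). All 4 wild-type lines rise for Slc7a11, Slc2a1, Slc7a2, Slc38a7, Slc16a3 and Slc6a8 and fall for Slc2a3 and Slc6a12, and in Booreana cells all 4 lines rise for Slc7a2 and Slc7a11.

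By class, the wild-type response without the block had 0 calls among 17 genes of the neutral amino acid class. It had 1 of 2 in the acidic and cystine class, and 2 of 5 among sugar carriers, in opposite directions. Of all genes tested 4.92% were called, and differences between classes were not tested. Arrays of the compared groups did not overlap for 8 transporter genes (5 higher, 3 lower), where 12.5% of all genes tested had no overlap. Monocytic and granule markers moved with this comparison: the summed linear level of 4 of 8 monocyte and macrophage markers (Cd14, Adgre1, Mrc1 and Fcgr1) was 2360 to 3170 on the control and 8130 to 10700 on the AML1-ETO9a arrays of wild-type cells. That of 8 of 8 neutrophil granule markers was 351000 to 365000 and 122000 to 206000. Megakaryocyte markers (5 of 6 tested) summed to 683 to 1980 and 3080 to 7470, eosinophil markers (4 of 5) to 15100 to 33600 and 3860 to 9070, and T and NK cell markers (2 of 5) to 2110 to 4010 and 398 to 990. Markers of a list did not all move together. Differences were positive for 2 and negative for 3 megakaryocyte markers (-0.71 to 4.32, median -0.27). They were positive for 3 and negative for 1 of the 4 monocyte and macrophage markers (lowest -0.38). The 2 T and NK cell markers split 1 and 1, while all 8 neutrophil granule and all 4 eosinophil markers were lower. Of 9 mast cell and basophil markers, 2 were called higher and 2 lower, with differences from -3.11 to 1.92 (4 positive, 5 negative). The part of these cells in the transporter differences was not tested.

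The same comparison in Booreana cells asks how the oncogene acts where c-Myb binds p300 weakly. Limma called 0 of 41 transporter genes, beside 2.00% of all genes tested. An unadjusted p under 0.05 was found for 6, beside 1169 of 8833 genes. With the block within genotype it called 1, Slc7a2 as given above, beside 4.01% of all genes. Markers moved here too: monocyte and macrophage markers summed to 4680 to 5510 on the control and 8310 to 12500 on the AML1-ETO9a arrays of Booreana cells, eosinophil markers to 27800 to 42600 and 11700 to 25600, T and NK cell markers to 832 to 2510 and 305 to 353, and neutrophil granule markers, which overlapped, to 45300 to 159000 and 51500 to 153000. Single neutrophil granule markers ran from -2.86 to 1.15, with 2 of 8 called lower. Mast cell and basophil markers ran from -3.18 to 4.44, with 3 of 9 called higher and 2 lower. Their sums were 35000 to 70500 on the control and 50200 to 96000 on the AML1-ETO9a arrays. Of the 4 monocyte and macrophage markers, 3 differences were positive and 1 was negative. The part of all these cells was not tested. Groups did not overlap for 2 transporter genes, Slc38a4 and Slc2a10, both lower with AML1-ETO9a, beside 7.21% of all genes.

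Slc38a5, a sodium-coupled carrier of glutamine, histidine, serine and glycine, had the largest positive difference of the transporter genes in Booreana cells, 1.44 ± 0.50 (adjusted p = 0.213), and was higher in 4 of 4 pairs. Slc3a2, the heavy chain, stood at 7.89, 8.69, 8.15 and 7.31 on Booreana control and at 7.18, 7.29, 7.16 and 7.65 on Booreana AML1-ETO9a arrays. Its difference was -0.69 ± 0.24 (adjusted p = 0.216), and it was called without Booreana control replicate 4 (-0.92, adjusted p = 0.0428) and with array weights (-0.70, adjusted p = 0.0331). In wild-type cells its difference was 0.07 ± 0.24. Slc38a4, another neutral amino acid carrier, differed by -0.66 ± 0.23 (adjusted p = 0.217).

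Whether the oncogene response itself differed between genotypes was tested as the difference of the 2 responses. Limma called 0 of 41 transporter genes, where 0.0906% of all genes were called. An unadjusted p under 0.05 was found for 6 of the 41, beside 630 of 8833 genes. With the block within genotype it again called 0, beside 0.306% of all genes. The Booreana minus wild-type difference of responses was negative for 30 genes and positive for 11, with a median of -0.31, where all genes tested had -0.08. For Slc7a11 it was -0.99 ± 0.37 (adjusted p = 0.585; 95% interval -1.77 to -0.20). For Slc2a3 it was 1.03 ± 0.29 (adjusted p = 0.321; interval 0.42 to 1.64), for Slc38a4 -1.23 ± 0.33 (adjusted p = 0.287), for Slc6a12 1.29 ± 0.56 (adjusted p = 0.69), for Slc3a2 -0.76 ± 0.34 (adjusted p = 0.721) and for Slc2a1 -0.58 ± 0.27 (adjusted p = 0.743). These 6 genes are the ones with an unadjusted p under 0.05. So the calls of Slc7a11, Slc2a1 and Slc2a3 in wild-type cells and their absence in Booreana cells were not shown to be a difference between genotypes after adjustment. For Slc7a2 the responses lay close together, with a difference of 0.06 ± 0.71 (interval -1.45 to 1.56).

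Booreana and wild-type cells with the control vector were compared to see what the Myb mutation changed without an oncogene. Slc6a9, Slc7a8 and Slc38a4, all carriers of neutral amino acids, were higher and Slc6a12 was lower in Booreana cells, so 4 of 41 transporter genes were called, beside 7.39% of all genes. Groups did not overlap for 9 transporter genes, 7 higher and 2 lower, where 12.6% of all genes did not overlap.

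Slc6a9, the glycine carrier GlyT1, which supplies glycine for haem in red cell precursors, stood at 6.98, 6.45, 6.71 and 8.19 on wild-type control and at 9.05, 9.72, 8.49 and 10.21 on Booreana control arrays. With AML1-ETO9a it stood at 7.22, 6.23, 6.87 and 7.72 in wild-type and at 9.17, 9.31, 8.71 and 9.92 in Booreana cells. All 8 Booreana arrays lay above all 8 wild-type arrays, and replicate 4 was the highest in each of the 4 groups. The difference was 2.28 ± 0.44 with the control vector, or 4.87-fold (adjusted p = 0.00352), and 2.27 ± 0.44 with AML1-ETO9a, or 4.83-fold (adjusted p = 0.00632). Both calls were kept in all 27 alternative settings, while the size fell to 1.07 and 1.03 on the log2 scale with the authors' processed values.

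Erythroid markers moved with genotype in the same way. The summed linear level of 4 of 8 of them (Klf1, Gata1, Hba-a1 and Epor) was 279 to 831 on wild-type control, 258 to 512 on wild-type AML1-ETO9a, 5380 to 9180 on Booreana control and 4390 to 12200 on Booreana AML1-ETO9a arrays. Mast cell and basophil markers (9 of 9 tested) summed to 14400 to 37100, 24400 to 45700, 35000 to 70500 and 50200 to 96000 in the same order of groups, and neutrophil granule markers to 45300 to 159000 on Booreana control arrays, against the wild-type range given above. Megakaryocyte markers summed to 3660 to 7590 on Booreana control and 4700 to 9980 on Booreana AML1-ETO9a arrays. Booreana minus wild-type differences of the 9 mast cell and basophil markers were positive for 6 and negative for 3 with the control vector. With AML1-ETO9a they were positive for 8 and negative for 1. The part of these cells in the differences of Slc6a9, Slc38a5, Slc7a8 and the other transporter genes was not tested.

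Slc7a8, the light chain LAT2, stood at 10.11, 9.45, 9.00 and 9.70 on wild-type control and at 10.79, 10.60, 10.53 and 11.50 on Booreana control arrays, with no overlap. It was higher by 1.29 ± 0.30, or 2.45-fold (adjusted p = 0.0157). A second probe of Slc7a8 gave 0.86 ± 0.56 (adjusted p = 0.492): its Booreana control values were 8.09, 5.48, 7.79 and 8.95, with replicate 2, the array that stood apart, below the detection limit. The call of the first probe was lost without wild-type control replicate 2 (adjusted p = 0.0507), wild-type control replicate 3 (0.0657) or Booreana control replicate 4 (0.0525), and with only the groups compared (0.053). With AML1-ETO9a the first probe stood at 10.59, 9.53, 9.59 and 10.30 in wild-type and 11.31, 10.99, 10.54 and 11.19 in Booreana cells, which overlapped slightly (1.01 ± 0.30, adjusted p = 0.0965, and 0.0212 with array weights).

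Slc38a4 stood at 5.61, 5.60, 5.92 and 6.30 on wild-type control arrays, of which 2 detected it, and at 6.51, 7.27, 6.58 and 6.41 on Booreana control arrays. The groups did not overlap, but the gap between the nearest arrays was small and the highest value came from Booreana control replicate 2. The difference was 0.84 ± 0.23 (adjusted p = 0.0438), and 0.65 without that array (adjusted p = 0.109). The call was lost in 11 of 16 fits with 1 array left out, with adjusted p from 0.0502 to 0.137, and under 7 other alternatives. Among these the difference was 0.28 without background correction (adjusted p = 0.114) and 0.17 with the authors' processed values (adjusted p = 0.13).

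Slc6a12 was the transporter gene called lower. Its Booreana control arrays, at 7.68, 8.34, 7.68 and 7.57, lay below all wild-type control arrays given above. The difference was -1.58 ± 0.40 (adjusted p = 0.0232). It was lost when wild-type control replicate 2, 3 or 4 or Booreana control replicate 1, 3 or 4 was left out, with adjusted p from 0.0536 to 0.07 and values from -1.60 to -1.48, and was -0.84, still called, with the authors' processed values. With AML1-ETO9a the Booreana arrays stood at 6.69, 8.15, 7.43 and 8.94 and overlapped the wild-type ones (-0.29 ± 0.40, adjusted p = 0.935). Its neighbour in function, Slc6a13, another GABA carrier, was at 11.35, 11.34, 11.29 and 11.50 on wild-type control arrays and at 10.51, 11.18, 10.41 and 11.13 on Booreana control arrays. These did not overlap, and the difference of -0.56 ± 0.21 was not called (adjusted p = 0.168), though it was with array weights (-0.80, adjusted p = 0.00614).

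Differences of the 5 tested sugar carriers ran from 0.32 to 0.72 (median 0.46) here and those of the 5 cationic carriers from 0.05 to 1.12 (median 0.11). None was called in either class, where 7.39% of all genes were called. In limma's fit 2 of each had an unadjusted p under 0.05, beside 1643 of 8833 genes. Of all genes tested 4774 of 8833 had a positive difference, and Slc7a2 and Slc38a9 changed sign in some fits with 1 array left out (lowest -0.45 and -0.03). Slc2a6, a lysosomal sugar carrier, stood at 11.96, 12.68, 12.44 and 12.64 on wild-type control and at 13.04, 13.07, 13.04 and 13.46 on Booreana control arrays. Its groups did not overlap (0.72 ± 0.26, adjusted p = 0.136). Slc7a6, a light chain that exchanges cationic for neutral amino acids, stood at 7.17, 7.45, 7.71 and 7.44 and at 7.87, 8.71, 8.27 and 7.78, again without overlap (0.72 ± 0.27, adjusted p = 0.162). Of the 3 monocarboxylate genes, Slc16a3 was higher (0.67) and Slc16a6 and Slc16a13 were lower (-1.10 and -0.47), none of them called. Slc16a6 shows how much 1 array can weigh: Booreana control replicate 2 was at 7.25 and the others at 9.89 to 10.40, and its difference without that array was -0.38. Of its other tested probes, 1 gave -0.09 ± 0.39 and 1 gave -1.25 ± 1.10.

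With AML1-ETO9a present, Booreana and wild-type cells were compared to see where the mutation changed the oncogene-carrying state. Slc6a9, Slc38a5 and Slc2a3 were higher in Booreana cells, so 3 of 41 transporter genes were called, beside 4.21% of all genes. Groups did not overlap for 5 transporter genes, 3 higher and 2 lower, where 10.0% of all genes did not. The 4 comparisons use the same 16 arrays, each array entering 2 of them, so their values are not independent.

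Slc2a3 gave the smallest adjusted p of the transporter genes here. Its Booreana AML1-ETO9a arrays all lay above its wild-type AML1-ETO9a arrays, by 1.49 ± 0.20, or 2.81-fold (adjusted p = 0.000375), and the call was kept in all 27 alternative settings. With the control vector its Booreana minus wild-type difference was 0.46 ± 0.20 (adjusted p = 0.246).

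Slc38a5 stood at 6.50, 5.85, 6.54 and 6.20 in wild-type and at 8.48, 9.00, 8.01 and 8.47 in Booreana AML1-ETO9a cells. On control arrays it stood at 5.02, 4.86, 5.67 and 7.48 in wild-type cells, detected on 1 of 4, and at 7.20, 8.17, 6.10 and 6.73 in Booreana cells. The AML1-ETO9a groups lay well apart, while wild-type control replicate 4 lay within the Booreana control range. The difference was 2.22 ± 0.50 with AML1-ETO9a, or 4.65-fold (adjusted p = 0.0195), and 1.29 ± 0.50 with the control vector (adjusted p = 0.177). The AML1-ETO9a call was lost without replicate 1, 2 or 4 of the Booreana group or replicate 2 or 4 of the wild-type group, with adjusted p from 0.051 to 0.0677 and values from 2.05 to 2.22. Without wild-type control replicate 4 the control vector difference was called (adjusted p = 0.0108), but the gene was then detected on none of the other wild-type control arrays, so no size is given. With the authors' processed values the AML1-ETO9a difference was 0.75, and it stayed called.

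Slc7a11 lay lower in Booreana AML1-ETO9a than in wild-type AML1-ETO9a cells, without overlap (-0.95 ± 0.26, adjusted p = 0.0598). It passed the threshold when Booreana control replicate 2 (adjusted p = 0.0388), Booreana control replicate 3 (0.0392) or Booreana AML1-ETO9a replicate 2 (0.0363) was left out. It also passed with array weights (0.00559), without background correction (0.0323), with an offset of 50 (0.045) and with the authors' processed values (0.0272). With the control vector the genotypes differed by 0.04 ± 0.26. The other gene lower without overlap was Slc36a1, a lysosomal carrier that exports small neutral amino acids with a proton, named after its values were seen. It stood at 7.33, 7.55, 8.20 and 7.82 in wild-type and 6.20, 5.76, 6.78 and 7.26 in Booreana AML1-ETO9a cells (-1.23 ± 0.35, adjusted p = 0.0712).

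Some of the best known growth-linked carriers were detected well without a call. Slc7a5, the light chain LAT1 that brings in leucine, stood at 13.86, 13.89, 14.08 and 13.89 on wild-type control, 13.39, 13.78, 13.86 and 13.90 on wild-type AML1-ETO9a, 14.51, 13.88, 14.43 and 14.24 on Booreana control and 13.96, 14.07, 13.97 and 13.78 on Booreana AML1-ETO9a arrays. The groups overlapped, and its differences ran from -0.32 (AML1-ETO9a in Booreana cells; interval -0.68 to 0.05) to 0.33 (Booreana with the control vector; interval -0.03 to 0.70). Its partner Slc3a2 was higher in Booreana than in wild-type control cells by 0.79 ± 0.24 (adjusted p = 0.0669), and was called there without Booreana control replicate 4 (1.03, adjusted p = 0.00956). Array weights also called Slc3a2 (0.71, adjusted p = 0.013) and Slc7a5 (0.47, adjusted p = 0.0286) in that comparison. Slc1a5, the glutamine carrier ASCT2, was near the detection limit: its brightest probe was found on 2 of 4 arrays in 3 groups and on 0 of 4 in Booreana AML1-ETO9a cells, where its other tested probe was found on 2 of 4. The largest difference of the brightest probe was -0.62 ± 0.34, for AML1-ETO9a minus control in wild-type cells (adjusted p = 0.506). Slc38a2, a glutamine and alanine carrier that the amino acid response induces, differed by 0.08 to 0.24 on its brightest probe, none of it called.

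The remaining genes named by rule, those with the highest mean in their class, gave small or uneven differences. Slc6a6, the taurine carrier, differed by -0.02 to 0.28 (standard error 0.20) over the 4 comparisons. Slc38a9, a lysosomal carrier that senses arginine, differed by -0.28 to 0.17, and Slc1a7, a glutamate carrier known from the retina, by -0.26 to 0.07. Slc5a6, the carrier of biotin and pantothenate, differed by -0.56 ± 0.23 for AML1-ETO9a minus control in Booreana cells (adjusted p = 0.32), Slc7a4, whose substrate is not settled, by at most 0.32, and Slc7a6os by at most 0.20. Slc16a13, a monocarboxylate carrier, differed by 0.92 ± 0.46 between the viruses in wild-type cells (adjusted p = 0.415). The serotonin carrier Slc6a4, outside the rule and named for its spread, was detected on 1 of 4 arrays in each wild-type group. It stood at 6.71, 5.19, 7.04 and 9.75 on the Booreana control arrays, where the highest value came from replicate 4, and was not called (adjusted p = 0.188).

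Genes around these carriers were counted in the same fit, from lists chosen with earlier results of these data known. Of 26 tested genes of the amino acid response, 0 were called in either oncogene comparison (8 and 4 at an unadjusted p under 0.05), with medians of -0.06 in wild-type and 0.07 in Booreana cells. Of all 8833 genes, 4.92% and 2.00% were called there, and 1300 and 1169 had an unadjusted p under 0.05. Asns, the asparagine synthetase that ATF4 induces, lies outside the rule for named genes. It differed by -0.57 ± 0.22 in the wild-type comparison in which Slc7a11 rose (adjusted p = 0.238). In that comparison 12 of the 26 differences were positive and 14 negative, from -1.15 to 1.18. The part of the amino acid response in the Slc7a11 rise was not tested. In Booreana control cells 1 gene of this list was higher (Vldlr, a lipoprotein receptor, 1.58 ± 0.39, adjusted p = 0.0198) and 1 lower (Atf5, a transcription factor, -1.16 ± 0.31, adjusted p = 0.036). These are 2 of 26 genes, close to the 7.39% of all genes called in that comparison.

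Of 17 tested genes of glycolysis and lactate, Pfkfb4, which makes the activator of phosphofructokinase, fell in wild-type cells with the oncogene (-1.31 ± 0.24, adjusted p = 0.00352), and 0 were called in Booreana cells (2 at an unadjusted p under 0.05, beside the 1169 of 8833 genes given above). Pfkfb4 was lower in Booreana control cells too (-1.09 ± 0.24, adjusted p = 0.00892). Hk3, a hexokinase of myeloid cells, was lower in Booreana cells with the control vector (-1.45 ± 0.25, adjusted p = 0.00174) and with AML1-ETO9a (-1.06 ± 0.25, adjusted p = 0.0286). Of all genes, 4.92% and 2.00% were called in the wild-type and Booreana responses. Between genotypes the shares were 7.39% with the control vector and 4.21% with AML1-ETO9a.

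Of 15 tested genes that use glutamine, glutathione or arginine, Arg1 and Arg2, the arginases, rose with AML1-ETO9a in wild-type cells. Arg1 rose by 4.30 ± 0.89 there (adjusted p = 0.00939) and by 4.14 ± 0.89 in Booreana cells (adjusted p = 0.026), the comparisons in which the arginine carrier Slc7a2 rose in the blocked fit. Arg2 rose by 1.26 ± 0.33 in wild-type cells (adjusted p = 0.0374). Of all genes, 4.92% were called in the wild-type and 2.00% in the Booreana response. Limma called 0 of the 15 in either comparison of genotypes (0 and 1 at an unadjusted p under 0.05). There 7.39% and 4.21% of all genes were called, and 1643 and 1119 of 8833 had an unadjusted p under 0.05.

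Of 18 tested genes of mTORC1 and lysosomal amino acid sensing, 3 were higher in Booreana control cells, where 7.39% of all genes were called. These were the arginine sensor Castor1 (2.05 ± 0.34, adjusted p = 0.00113), Nprl3 of the GATOR1 complex (1.17 ± 0.24, adjusted p = 0.00685) and Sesn1, a relative of the leucine sensor (0.75 ± 0.21, adjusted p = 0.0496), whose other probe gave 0.03. With AML1-ETO9a in wild-type cells 1 was called, beside 4.92% of all genes. This was Castor2 (1.21 ± 0.30, adjusted p = 0.029), whose other probe gave -0.23. Limma called 0 of the 18 in the other comparisons (2 each at an unadjusted p under 0.05, beside 1169 of 8833 genes for the Booreana response and 1119 for the genotypes with AML1-ETO9a), and 0 of 10 tested transporter partners and regulators in any of the 4 (1, 1, 0 and 0 at an unadjusted p under 0.05).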

How the data were processed

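Each array gave bead-averaged intensity values and detection p-values, deposited without background correction per the file headers. The authors' processed log2 values, used as an alternative, were made with lumi per the submitters' processing notes, with settings not given in the sources used here; they had a median of 8.341 on every array. Intensities were corrected with normexp (offset 16) guided by the detection p-values, quantile-normalized and logged to base 2 (log2) with limma 3.58.1 in R 4.3.3 (statmod 1.5.0). A probe entered the test if 4 arrays or more had a detection p below 0.05, in 1 fit of the 4 groups (lmFit, eBayes, Benjamini-Hochberg over all tested probes). The fit was also run on simulated data with independent errors of equal spread on every array. That simulation did not cover an array that stands apart or arrays that vary together. The brightest probe stood for a gene.

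Within a genotype, arrays of equal number were treated as pairs, which no label states, because their deviations correlated (0.167 to 0.708). Across genotypes the correlations ran from -0.614 to 0.329, so the ranges overlapped. Calls made only with the block within genotype rest on this pairing. Named genes were those called in a comparison, up to 4 called genes of each pathway list, the 3 with the highest mean in each class, and 8 carriers (where tested) known for cell growth. Members and lists were chosen with earlier results of these data known. Alternatives changed the background correction, normalization, probe filter, probe choice, arrays, weights and block. Probes without a symbol (1719 of 25697) were named from no other source, and the number of arrays limits precision.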

Additional observations from a re-analysis of the deposited data

Results flagged for a closer look

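In 5 of 100 groups of 4 arrays tested among the named genes, 1 array lay far from the other 3 by Dixon's test, and chance alone flags about 1 in 20 groups. Slc16a6 was at 7.25 on Booreana control replicate 2 and at 9.89 to 10.40 on the others, and Slc6a12 was at 8.34 on that same array, against 7.57 to 7.68. Slc2a6 was at 13.46 on Booreana control replicate 4, with the others at 13.04 to 13.07. Slc16a13 was at 7.62 on wild-type control replicate 1, with the others at 6.35 to 6.55. Slc7a5 was at 14.08 on wild-type control replicate 3, with the others at 13.86 to 13.89.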

How the results depend on the processing

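With 1 array left out, 1954 of 2000 values for the named genes kept their direction and side of the threshold, 38 lost a call and 8 gained one. Under the other alternatives 1355 of 1390 did, 12 lost and 23 gained one, and none of the called values reversed. The number of transporter genes called in the wild-type response (3) was 1 without normalization between arrays, 6 with array weights, 8 with the replicate block within genotype, and 2 to 3 with 1 array left out. In the Booreana response (0) it was 1 with array weights (Slc3a2), 1 with the replicate block within genotype (Slc7a2), and 0 to 1 with 1 array left out. Between genotypes with the control vector (4) it was 9 with array weights, 2 with only the groups compared, and 1 to 4 with 1 array left out (1 without wild-type control replicate 2 or 3, 2 without Booreana control replicate 1 or 3). With AML1-ETO9a (3) it was 5 with the planned replicate block across genotypes, 6 with array weights, and 2 to 4 with 1 array left out. For the difference of responses it was 0 in all 16 fits with 1 array left out and in the 11 other alternatives. The cause of these changes was not tested. Array weights gave Booreana control replicate 2 the lowest weight, 0.129, where the highest was 2.20. The replicate block within genotype was added after the data were seen. Across genotypes the correlations of equal numbers were of either sign, and some exceeded the lowest within a genotype. The slide as a block was not run, since the headers used here give none. Probes near background, such as those of Slc38a4, Slc38a5 and Slc1a5, limit what these arrays show.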
